A study of Mus musculus with 11 samples.

Results

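Described here are 10 germline genes, Ddx4, Dazl, Mael, Tdrkh, Sycp3, Stag3, Smc1b, Taf7l, Slc25a31 and Stk31, which were taken by their symbols from a table of 23288 gene symbols, together with every called ChIP-seq peak at them. All 10 were in the table. The study asked what CBX6, one of the chromobox proteins of Polycomb repressive complex 1 (PRC1), does in mouse embryonic stem cells (ESCs). All samples came from the E14Tg2A ESC line, grown without feeder cells in fetal bovine serum and leukemia inhibitory factor. RNA-seq was available for 2 libraries of ESCs carrying a control short hairpin RNA (shCtl) and 2 of ESCs carrying a hairpin against Cbx6 (shCbx6), and neither the labels nor the methods say which hairpin sequence each library carried. Peak lists were available for CBX7, for RING1B and for 2 anti-HA replicates in ESCs whose own Cbx6 gene carries a 3×HA tag, a line derived from single sorted cells. Nothing says that the 2 libraries of a group came from separate cultures, so their spread may be technical. The HA control and IgG ChIPs were not analysed here.

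PRC1 is built around the ubiquitin ligases RING1A and RING1B and exists in several forms. Canonical PRC1 holds a chromobox protein such as CBX7, which binds the histone mark H3K27me3 laid down by PRC2, whereas variant PRC1 holds RYBP or YAF2 instead. The variant complex PRC1.6 holds PCGF6, L3MBTL2, the MGA-MAX pair and E2F6-DP1. It is known to bind promoters of meiosis and germ cell genes in ESCs through E-box and E2F sequences. It is also known to keep these genes low until the germline forms. The study captured CBX6 together with L3MBTL2, MGA and PCGF6 as well as with proteins of canonical PRC1. It proposes that CBX6 reaches chromatin without need of H3K27me3.

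RING1B had a peak at all 10 germline genes, while CBX7 had one at Ddx4 and Tdrkh only. A gene was given a peak when a peak overlapped, by at least 1 bp, the span from 2.5 kb upstream of its start to its end. By this rule 16.0% of 21885 genes with coordinates had a RING1B peak and 17.9% a CBX7 peak. CBX6 replicate 1, whose list is by far the longest, had a peak at 8 of the 10, all but Taf7l and Slc25a31, beside 56.9% of all genes. CBX6 replicate 2 had one at Ddx4, Tdrkh and Stk31, beside 16.6% of all genes. Each list is a single ChIP, so these are descriptions with no test. The 10 genes were listed beforehand as germline genes silenced by variant PRC1. Their shares of RING1B, of CBX7 and of the promoter words below are therefore no independent evidence.

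The germ granule genes opened the set. Ddx4 encodes the Vasa RNA helicase, and its RING1B peak at chr13:113441712-113443179 (mm9, as are all positions here) had a score of 512. The score is that of the MACS peak caller, which rises as the p-value of a peak falls, and is comparable only within a list. The peak ran from −661 to 806 bp around the start site, and the CBX7 peak there scored 59.5 and spanned 1041 bp inside it. A CBX6 replicate 1 peak with a score of 131 covered the start site too, and a CBX6 replicate 2 peak with a score of 57.0 lay 16 to 714 bp inside the gene. Tdrkh, whose Tudor protein helps to trim piRNAs at mitochondria, carried the other CBX7 peak, with a score of 204 and a RING1B score of 310 at chr3:94216127-94218035. Its CBX6 replicate 1 peak scored 374, higher than 98.1% of that list. Its CBX6 replicate 2 peak scored 56.9, higher than 10.2% of its own list, and ended 29 bp short of the start site. Ddx4 and Tdrkh were thus the members that carried peaks of all 4 lists. At Ddx4 the CBX7 peak scored higher than 6.7% of its list, and the CBX6 replicate 2 peak higher than 10.3%. With a score of at least 100, neither gene kept its CBX6 replicate 2 peak.

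At the next group of genes RING1B was called without CBX7. Mael encodes Maelstrom, a piRNA pathway protein, and its RING1B peak at chr1:168168106-168169651 scored 132, with the nearest CBX7 peak 13901 bp away. Dazl, an RNA-binding regulator of translation in germ cells, had a RING1B peak with a score of 170 at chr17:50431946-50433556, and its nearest CBX7 peak lay 100595 bp away. Both had a CBX6 replicate 1 peak, with scores of 89.0 and 51.2, and neither had one of replicate 2. The lowest score in the CBX6 replicate 1 list is 50.01, so the Dazl peak lay close to the limit of that list. Stk31, which encodes a Tudor and kinase domain protein of germ cells, was alone among the genes without CBX7 in having peaks of both CBX6 replicates. Its RING1B peak at chr6:49344861-49346468 scored 210, and its CBX6 peaks scored 104 and 69.3.

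The genes of the meiotic chromosome axis all lay in this class too. Sycp3 encodes an axial element protein of the synaptonemal complex and had the weakest RING1B peak of the set, with a score of 90.3 at chr10:87921726-87922996. Stag3 and Smc1b encode subunits of meiotic cohesin, and their RING1B peaks scored 106 at chr5:138721107-138722290 and 123 at chr15:84961701-84962942. None of the 3 had a CBX7 or CBX6 replicate 2 peak, and their CBX6 replicate 1 peaks scored 201, 106 and 126. Each of these RING1B peaks also lay in the gene span of a neighbour, Chpt1 for Sycp3, Gpc2 for Stag3 and Ribc2 for Smc1b, so the peak cannot be given to either gene alone.

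RING1B was called without any of the other lists at Taf7l and Slc25a31. Slc25a31 encodes the ADP/ATP carrier of male germ cell mitochondria, and its RING1B peak at chr3:40512123-40513471 scored 188, with the nearest CBX6 replicate 1 peak 80594 bp away. Taf7l encodes a germ cell relative of a TFIID subunit, and its RING1B peak at chrX:131009082-131010974 scored 254. This peak began 55 bp inside the gene and ended 1947 bp downstream of the start site, whereas the other 9 covered it. Taf7l is on the X chromosome, where the CBX6 replicate 1 list held 53 of its 21865 peaks (0.242%), beside 3.11% of the RING1B, 2.68% of the CBX7 and 1.82% of the CBX6 replicate 2 peaks. The part of that sparse coverage in the missing Taf7l peak was not tested.

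**Figure D1:**
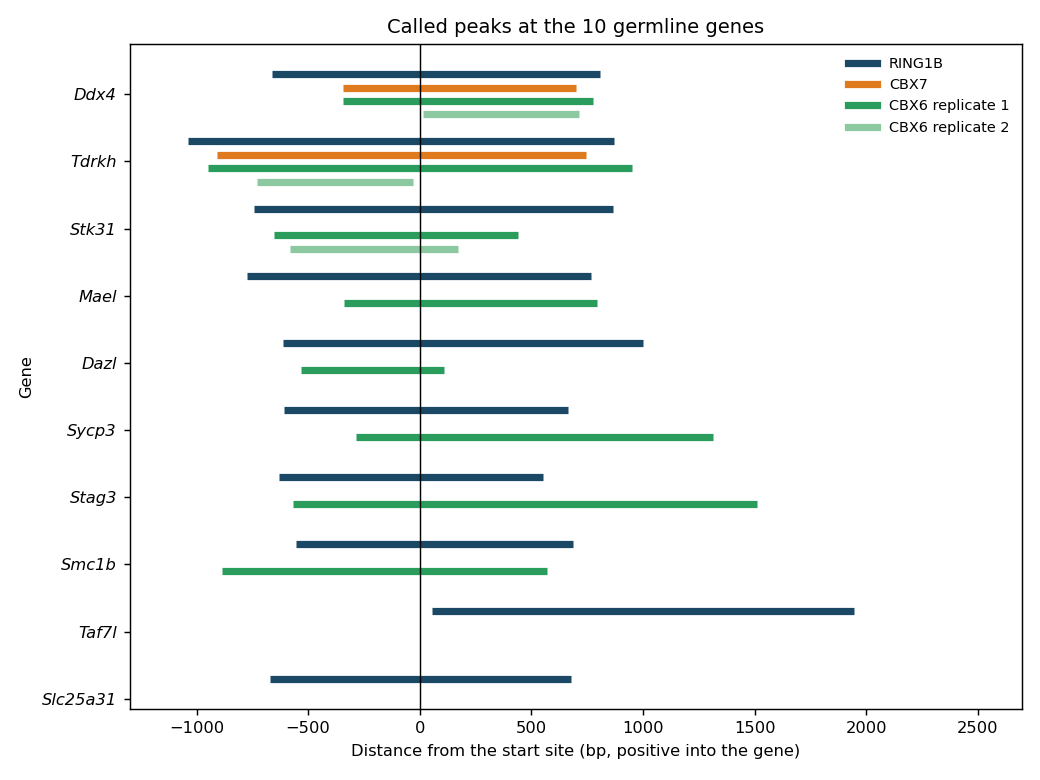
Called peaks of the 4 lists at each of the 10 germline genes, plotted by distance from the RefSeq start site in bp, with positive values running into the gene. RING1B lay at every gene, CBX7 at Ddx4 and Tdrkh, CBX6 replicate 1 at 8 genes and CBX6 replicate 2 at Ddx4, Tdrkh and Stk31.

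The RING1B peaks covered the start site at 9 of the 10 genes, and the promoter sequences were read for the words known from PRC1.6 partners, TCCCGC for E2F and CACGTG for the E-box, each on both strands; the words overlapped in none of the 10 promoters. The window was 250 bases before to 50 after the RefSeq start. The E-box word stood in 7 of the 10 promoters, beside 7.15% of 32851 RefSeq promoters, and the E2F word in 6, beside 20.0%. Both words stood in 5, Ddx4, Mael, Sycp3, Slc25a31 and Stag3, beside 1.99% of all promoters. Dazl and Tdrkh held neither. The upstream stretches of Ddx4, Mael and Sycp3 are shown because they carry both words, and that of Dazl because it carries none. That of Sycp3 ends at −19 from the start site, just before an annotated exon, and the others end at −1. All run 5′ to 3′ on the gene's strand and the words stand in capitals.
Ddx4 (chr13:113442519-113442768, - strand): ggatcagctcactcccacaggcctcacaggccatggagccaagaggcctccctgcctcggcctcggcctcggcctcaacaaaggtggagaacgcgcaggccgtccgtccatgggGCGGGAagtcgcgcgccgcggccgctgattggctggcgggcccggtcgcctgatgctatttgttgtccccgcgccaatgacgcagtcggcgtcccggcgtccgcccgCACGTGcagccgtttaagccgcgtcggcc
Mael (chr1:168168876-168169125, - strand): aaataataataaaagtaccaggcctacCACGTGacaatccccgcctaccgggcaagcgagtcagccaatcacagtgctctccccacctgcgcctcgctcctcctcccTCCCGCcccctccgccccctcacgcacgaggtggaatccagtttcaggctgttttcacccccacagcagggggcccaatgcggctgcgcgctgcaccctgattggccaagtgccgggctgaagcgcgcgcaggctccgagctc
Sycp3 (chr10:87922082-87922313, + strand): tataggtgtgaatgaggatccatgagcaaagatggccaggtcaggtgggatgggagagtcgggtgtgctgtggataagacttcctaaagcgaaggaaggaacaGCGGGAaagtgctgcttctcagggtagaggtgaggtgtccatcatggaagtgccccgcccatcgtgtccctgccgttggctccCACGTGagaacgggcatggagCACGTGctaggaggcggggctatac
Dazl (chr17:50432946-50433195, - strand): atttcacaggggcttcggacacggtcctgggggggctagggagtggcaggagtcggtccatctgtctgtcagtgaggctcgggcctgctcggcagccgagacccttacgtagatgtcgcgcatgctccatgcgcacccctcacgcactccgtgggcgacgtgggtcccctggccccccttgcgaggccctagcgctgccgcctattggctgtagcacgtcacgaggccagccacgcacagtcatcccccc
The E-box word began at position −29 in Ddx4, −223 in Mael and −64 and −43 in Sycp3, counted from the start site, and the E2F word at −136, −143 and −147. Another E2F word of Mael began at position 12, inside the transcript. The E2F word of Slc25a31 began at 21, also inside the transcript, and that of Stag3 at −2, across the start site. In the 200 bases upstream of the start site, only Ddx4 and Sycp3 held both words.

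The E-box words of the remaining 4 genes are shown with their nearest bases, because 3 of these genes had neither CBX7 nor CBX6 replicate 2, and Stk31 had CBX6 but not CBX7.
Taf7l (chrX:131011061-131011090, - strand): accctcttatacCACGTGacagaactcgcc
Slc25a31 (chr3:40512688-40512717, + strand): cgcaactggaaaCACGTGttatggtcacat
Stk31 (chr6:49345471-49345500, + strand): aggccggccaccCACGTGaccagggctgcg
Stag3 (chr5:138721555-138721584, + strand): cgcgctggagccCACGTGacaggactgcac
They began at −49 in Taf7l, −93 in Slc25a31, −120 in Stk31 and −170 in Stag3. The word of Taf7l lay outside its RING1B peak, which began 55 bp inside the gene. Smc1b had no E-box word and 1 E2F word, at −47, shown for that reason.
Smc1b (chr15:84962417-84962446, - strand): aaaagaatttctTCCCGCgctttttttttt
A match in this window is a description of its letters, not a sign of a bound factor.

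The E-box word was also read in the same window around the GENCODE start of every gene, which for some genes differs from the RefSeq start. Among 320 genes with RING1B and no CBX7, which were 9.11% of the 3512 genes with RING1B, 24.7% held the E-box word. Leaving out the 8 germline genes without CBX7, it was 23.7% of 312 genes. The share was 8.8% of the 3192 genes with both RING1B and CBX7 and 7.4% of the genes without RING1B. The E2F word did not part these classes in the same way, with 31.1% of those 312 genes, 36.7% and 22.8%. In these GENCODE windows 6 of the 10 germline genes held the E-box word. The ratio of observed to expected CpG in the RefSeq windows lay between 0.67 in Sycp3 and 1.08 in Smc1b, beside a median of 0.384 over RefSeq promoters. In the GENCODE windows the median was 0.805 over the 10 genes, 0.716 over genes with RING1B and no CBX7, 0.683 over those with both and 0.547 over all genes.

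The germline RING1B peaks were narrow, as were those without CBX7 in general. All 10 were narrower than the median RING1B peak of 2315.5 bp, from 1184 bp at Stag3 to 1909 bp at Tdrkh. Their median score was 178.7, beside 402.3 over all 4180 RING1B peaks. Only Ddx4 scored above that median. Of all RING1B peaks, 10.0% were not overlapped by a CBX7 peak, 23.0% not by CBX6 replicate 1 and 21.5% not by CBX6 replicate 2. RING1B peaks without CBX7 had a median score of 75.6 and a median width of 1340.0 bp, and those with CBX7 of 510.1 and 2425.0 bp. All 8 germline peaks without CBX7 scored above the first of these medians and below the second. Of the genes with RING1B, 13.6% had no CBX6 replicate 1 peak and 19.4% no CBX6 replicate 2 peak, beside 2 and 7 of the 10 germline genes.

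**Figure D2:**
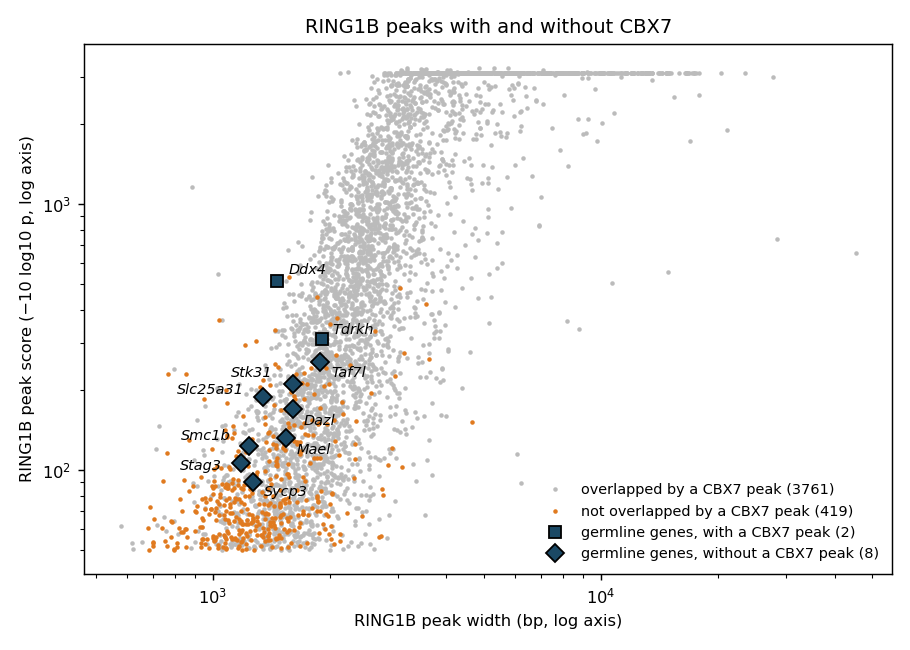
Width in bp against MACS score of the 4180 RING1B peaks, both on log axes, with the 419 peaks without CBX7 in orange and the germline genes as large dark markers. The germline peaks sit at widths of 1184 to 1909 bp and scores of 90.3 to 512, and the row of points at the top is a score of about 3100 that many peaks share.

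Genes listed as developmental Polycomb targets looked different. The list was Eomes, Gata4, Gata6, Gsc, Nes, Prdm14 and Tbx3, chosen with their peaks already known and so no independent evidence. These genes had peaks of all 4 lists at 7 of 7. Their highest-scoring RING1B peaks ran from 2943 bp wide at Prdm14 to 10061 bp at Gata6, still wider than any of the germline peaks. Their RING1B scores overlapped those of the germline genes, with 115 at Tbx3 and 163 at Prdm14 and 3100 at Gsc, Gata4, Gata6 and Eomes.

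The RNA libraries were first checked for the knockdown and for the cell type. Cbx6 itself stood at 17.4 and 14.9 FPKM in shCtl and 9.53 and 5.40 in shCbx6, a difference of −1.06 ± 0.26 (SE, log2(FPKM + 1) scale) that did not pass the test (limma, adjusted p = 0.247). Without shCbx6 replicate 1 it did, at −1.42 and an adjusted p of 0.0297. FPKM scale the fragments of a gene to its transcript length and to the library's total. From the step of the lowest values in genes with 1 transcript, the libraries held an estimated 28500000 to 34100000 fragments each. The 6 ESC markers read, Pou5f1, Sox2, Nanog, Zfp42, Klf4 and Esrrb, were abundant in every library, with summed levels of 2502 and 2718 FPKM in shCtl and 1979 and 1920 in shCbx6, and 3 of them, Nanog, Klf4 and Esrrb, were at least 1.5-fold lower in shCbx6, beside 6.56% of all genes tested. The library shCbx6 replicate 2 stood apart from shCbx6 replicate 1, with 1206 of 11592 genes at least 1.5-fold higher in it and 759 lower, beside 662 and 540 between the shCtl libraries.

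In the control ESCs the name of the set as silenced genes did not hold for all of it. With 1 FPKM as the level at which the study counted a gene as expressed, 6 of the 10 were expressed in shCtl, beside 49.9% of all genes with coordinates, and they are therefore called germline genes here. Stag3 was the highest, at 24.7 and 21.8 FPKM, followed by Sycp3 at 16.5 and 14.1. Next came Mael at 5.81 and 7.25 and Ddx4 at 5.85 and 5.51, whose libraries overlapped. Stk31 at 2.80 and 3.69 and Dazl at 3.54 and 1.76 overlapped as well. The lowest 4 genes, Slc25a31, Tdrkh, Taf7l and Smc1b, lay between 0.432 and 0.840 FPKM in both shCtl libraries, and neighbours in this order overlapped. An estimated 25 to 70 fragments stood behind each of these low values, against 2833 and 3164 behind those of Stag3, so the low genes were measured less precisely. Levels in bulk RNA cannot tell a few cells with much RNA from many with little. Over all 320 genes with RING1B and no CBX7, the median shCtl level was 2.65 FPKM and 60.0% stood at 1 FPKM or above, beside 1.90 FPKM and 53.8% for genes without RING1B. For genes with both RING1B and CBX7 they were 0.182 FPKM and 26.6%.

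**Figure D3:**
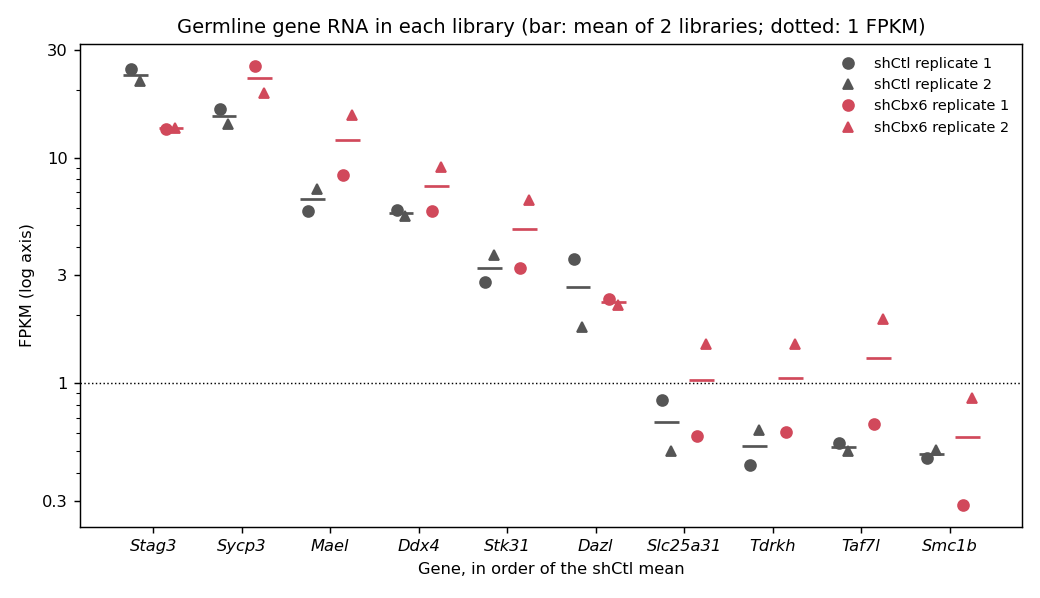
FPKM of the 10 germline genes in each of the 4 RNA libraries on a log axis, ordered by the shCtl mean, with horizontal bars for the means of 2 libraries and a dotted line at 1 FPKM. In shCtl 6 genes lie above the line and Slc25a31, Tdrkh, Taf7l and Smc1b below it, and the triangle of shCbx6 replicate 2 is the highest point of 7 genes.

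The question put to the knockdown was whether these genes changed when Cbx6 was reduced. The test took genes whose mean reached 1 FPKM in shCtl or in shCbx6, which left 9 of the 10. None of the 9 passed limma's test at an adjusted p of 0.05. The test called 11 of 11592 genes (0.0949%), and 2 of the 9, Sycp3 and Stag3, had an unadjusted p under 0.05, beside 11.7% of all genes tested. By the ratio of mean FPKM, 4 were at least 1.5-fold higher in shCbx6, Mael, Taf7l, Tdrkh and Slc25a31, beside 7.63% of all genes tested, and Stag3 was at least 1.5-fold lower, beside 6.56%. Of the 4, Taf7l, Tdrkh and Slc25a31 passed the filter only through their shCbx6 mean, so they had to be higher there. Without shCbx6 replicate 2, only Sycp3 was at least 1.5-fold higher, and without shCbx6 replicate 1 there were 6, with Ddx4 and Stk31 beside these 4. Stag3 was past 1.5-fold lower in each case.

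Stag3 showed the tightest difference. It measured 24.7 and 21.8 FPKM in shCtl and 13.3 and 13.6 in shCbx6, so the groups did not overlap, as for 24.4% of all genes tested with lower values in shCbx6. The mean was 1.73-fold lower, with a log2 difference of −0.75 ± 0.14 (SE) and an adjusted p of 0.164 by limma. Each of the shCbx6 libraries lay at about the same distance below the controls. Smc1b, the other cohesin gene, was under the filter at 0.465 and 0.505 FPKM in shCtl and 0.288 and 0.859 in shCbx6, and its shCbx6 values lay on either side of both controls (log2 difference 0.06 ± 0.23, SE, from the fit without a filter). Sycp3 went the other way from Stag3, with 16.5 and 14.1 FPKM in shCtl and 25.5 and 19.4 in shCbx6. Its log2 difference was 0.52 ± 0.18 (SE; limma, adjusted p = 0.386), and it was the only one of the genes higher in shCbx6 whose replicate 1 was above replicate 2.

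Among the piRNA and germ granule genes, Mael had the largest difference on the log2(FPKM + 1) scale and Tdrkh the largest ratio of means, 1.99. Mael stood at 5.81 and 7.25 FPKM in shCtl and 8.36 and 15.4 in shCbx6. Its ratio of means was 1.82 and its log2 difference 0.73 ± 0.29 (SE; limma, adjusted p = 0.430). The groups did not overlap, but shCbx6 replicate 2 was 1.85 times replicate 1. Mael, Sycp3 and Taf7l were the 3 genes with both shCbx6 libraries above both shCtl libraries, as were 18.9% of all genes tested. Taf7l passed the filter only through its shCbx6 mean, so that mean had to be higher. Ddx4 measured 5.85 and 5.51 FPKM in shCtl and 5.76 and 9.11 in shCbx6, and only replicate 2 was above the controls. Its log2 difference was 0.31 ± 0.22 (SE; limma, adjusted p = 0.663). Tdrkh, at 0.432 and 0.622 FPKM in shCtl, stood at 0.607 and 1.49 in shCbx6, so replicate 1 lay within the controls, and its log2 difference was 0.39 ± 0.28 (SE; limma, adjusted p = 0.657). Dazl measured 3.54 and 1.76 FPKM in shCtl and 2.37 and 2.21 in shCbx6, both between the controls, with a log2 difference of −0.11 ± 0.27 (SE; limma, adjusted p = 0.922). The shCtl libraries of Dazl differed from each other more than the group means did.

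In the remaining 3 genes, shCbx6 replicate 2 was again the highest library. Taf7l stood at 0.541 and 0.500 FPKM in shCtl and 0.657 and 1.92 in shCbx6. Its ratio of means, 2.48, was the largest of the set, with a log2 difference of 0.53 ± 0.31 (SE; limma, adjusted p = 0.590). An estimated 127 fragments stood behind its highest value and 30 to 36 behind the others. Slc25a31 had 0.840 and 0.501 FPKM in shCtl and 0.580 and 1.49 in shCbx6, and Stk31 had 2.80 and 3.69 and then 3.23 and 6.46. In both, shCbx6 replicate 1 lay between the controls and replicate 2 above them. Their log2 differences were 0.26 ± 0.29 and 0.41 ± 0.30 (SE; limma, adjusted p = 0.797 and 0.667).

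**Figure D4:**
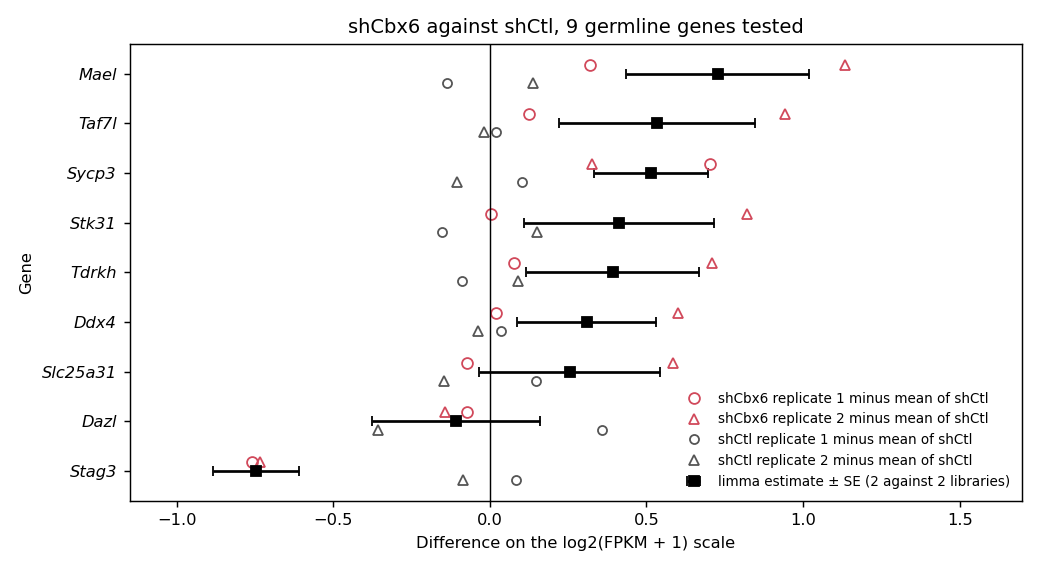
Differences between shCbx6 and shCtl on the log2(FPKM + 1) scale for the 9 germline genes tested, with black squares and bars for the limma estimate ± SE and open symbols for each library minus the mean of the shCtl libraries. The estimate of Stag3 is −0.75 and the highest is 0.73 for Mael, and the open triangle of shCbx6 replicate 2 lies right of the open circle of replicate 1 in 7 of the genes, Sycp3 and Dazl being the exceptions.

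The library shCbx6 replicate 2 gave the highest value for 7 of the 10 genes, Ddx4, Mael, Tdrkh, Stk31, Slc25a31, Taf7l and Smc1b. Of the 9 tested it was the highest for 6, beside 36.8% of all genes tested. Taf7l, Tdrkh and Slc25a31 are among these 6, and their other libraries all lay under 1 FPKM. They passed the filter only through shCbx6 replicate 2, which therefore had to be the highest. Some markers of other cell types were also highest in shCbx6 replicate 2. The summed level of 6 markers of 2-cell-like cells was 4.20 and 2.15 FPKM in shCtl and 1.76 and 8.25 in shCbx6, with Tcstv1 and Tcstv3 listed at 0 in all 4 libraries and Zfp352 lowest in shCbx6 replicate 2. That of 6 fibroblast markers was 1.72 and 1.69 and then 1.37 and 4.67 FPKM, most of it Thy1. Postn and Dcn were listed at 0 in shCtl, and Postn at 0 in shCbx6 replicate 2 too. Of 5 primordial germ cell markers, Dppa3 and Tfap2c were at least 1.5-fold higher in shCbx6 and highest in replicate 2, whereas Prdm1, Nanos3 and Kit were lowest in that library. Their summed level was 29.8 and 25.6 FPKM in shCtl and 48.3 and 75.01 in shCbx6, of which Dppa3 gave 57.1 in replicate 2. What part such cells had in the germline gene levels was not tested. The summed level of the 10 germline genes was 61.5 and 56.3 FPKM in shCtl and 60.6 and 72.0 in shCbx6.

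A wider list of 55 other germline genes was read in the same way. RING1B lay at 20 of them, beside 16.0% of all genes, and was without CBX7 at 10, Ddx25, Fkbp6, Henmt1, Mov10l1, Rad21l, Syce3, Sycp2, Tex11, Tex12 and Zcwpw1. It was alone at 5. The 10 with CBX7 were Cpeb1, Gm1564 (Meioc), Hormad1, Mei1, Sycp1, Tdrd1, Tdrd5, Tdrd6, Tdrd7 and Tex15. Tdrd6 and Cpeb1 had RING1B scores of 3053 and 2373, well above the 512 of Ddx4, and widths of 3036 and 3943 bp. Among genes with RING1B, CBX7 was thus missing at 8 of the 10 described here and at 10 of these 20, beside 9.11% of all 3512. The 10 described here had been listed as silenced by variant PRC1, so their share is no independent evidence.

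Of these 55 genes, 32 passed the filter. In shCbx6, 6 were at least 1.5-fold higher and 2 lower, beside 7.63% and 6.56% of all genes tested. None passed the limma test and 5 had an unadjusted p under 0.05, beside 11.7%. Without shCbx6 replicate 2 these counts were 5 and 10, and without shCbx6 replicate 1 they were 11 and 3. The median log2 difference was 0.07, beside −0.01 over all genes tested and 0.39 over the 9 tested here, 3 of which passed the filter only through shCbx6. Tex19.1, a gene of germ cells and pluripotent cells without a peak in any list, stood at 25.1 and 28.0 FPKM in shCtl and 41.2 and 82.4 in shCbx6. Zcwpw1, a reader of histone marks in meiosis with RING1B and no CBX7, stood at 9.97 and 7.86 and then 11.2 and 16.5 FPKM. Cpeb1, Gm1564 and Tdrd5 were the others at least 1.5-fold higher without overlap, but Cpeb1 and Tdrd5 passed the filter only through shCbx6 and so had to be higher there. Stra8, the inducer of meiosis that retinoic acid turns on, was lower, with 4.03 and 3.36 FPKM in shCtl and 1.82 and 2.38 in shCbx6, and so was Tex14, with 4.34 and 6.13 and then 3.19 and 3.52.

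The proteins known to act at these promoters were themselves measured at the RNA level. None of the 15 subunit genes of PRC1.6 was 1.5-fold higher or lower in shCbx6 and none passed the limma test, with 3 at an unadjusted p under 0.05, beside 11.7% of all genes tested. The groups did not overlap in 5 that were higher in shCbx6 and 5 that were lower, beside 18.9% and 24.4% of all genes. RING1B had a peak at 4 of the 15, E2f6, Hdac2, Tfdp1 and Yaf2, beside 16.0% of all genes. It was without CBX7 at Hdac2 and Tfdp1, beside 9.11% of all genes with RING1B. E2f6 stood at 8.96 and 10.5 FPKM in shCtl and 10.1 and 14.3 in shCbx6, with overlap. Yaf2, which takes the place of a chromobox protein in variant PRC1, stood at 1.97 and 1.90 and then 2.55 and 3.08 FPKM, and the histone deacetylase gene Hdac2 at 127 and 132 and then 103 and 96.7. The lowest ratio of means in this list, 0.71, was that of Wdr5, which had no RING1B peak and is named because it was the lowest (limma, adjusted p = 0.311). Among 8 genes of DNA and H3K9 methylation, which also act on germline promoters, 1 was past 1.5-fold, beside 7.63% higher and 6.56% lower over all genes, the DNA methyltransferase Dnmt3b at 31.8 and 31.8 FPKM in shCtl and 90.9 and 192 in shCbx6 (limma, adjusted p = 0.147). Dnmt3a, the list's gene with a RING1B peak, measured 8.26 and 8.09 and then 7.76 and 9.84 FPKM.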

How the data were processed

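The series holds 11 samples, 7 ChIP-seq and 4 RNA-seq. For RNA, the authors mapped read pairs to mm9 by TopHat, kept unique alignments and derived FPKM per RefSeq transcript with Cufflinks; the deposited FPKM table lists 1 value per symbol and library, and how transcripts were merged is not given in the sources used here. FPKM are relative to each library's total, so a change in RNA per cell is not visible. For ChIP, the authors used Bowtie on mm9 and MACS, and each deposited list gives a peak score, taken as the log-scaled p-value that MACS writes. Per the labels, DNA of the HA and CBX7 ChIPs was extracted with a kit and that of RING1B by another protocol, so scores are not on 1 scale between lists, and depth behind the lists is unknown.

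The 10 genes, the gene lists and the tests were chosen with earlier results of these data known. Named were these 10, each list gene with a RING1B peak or, of a list, up to 5 genes per direction past 1.5-fold without overlap, and Wdr5 and some cell type markers, chosen after their values were seen. Of 23290 entries, 25 have dates as symbols and 2 repeat a symbol. limma 3.58.1 in R 4.3.3 (lmFit, eBayes with trend, Benjamini-Hochberg adjustment) was fitted on log2(FPKM + 1) for the 11592 genes whose mean reached 1 FPKM in shCtl or shCbx6, without a replicate term, and was tested on simulated data. The pseudocount of 1 understates differences of low genes. GENCODE gene spans on mm9 were matched to 21149 symbols by name and 736 by synonym. Member promoters came from RefSeq (GRCm38.p6) and were placed on mm9 by their sequence. Fragments per value were estimated from the smallest FPKM steps and the annotated transcript length, which is approximate for genes with several transcripts. Peaks and sequences were read with Python 3.11.15 (pandas 2.3.3, pysam 0.24.0) and drawn with matplotlib 3.10.9. Alternatives changed the filter, pseudocount, scaling, replicate block, libraries used, peak score, window and overlap.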

Additional observations from a re-analysis of the deposited data

How the results depend on the processing

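With 2 libraries per group, differences of this size are weakly measured, and peak lists without read counts give no error. Taking the replicate number as a block (same-numbered deviations correlated at 0.266 over tested genes in 2 pairs, which does not show pairing) raised limma calls from 11 to 388, with Stag3 at an adjusted p of 0.0418 (−0.75) and Cbx6 at 0.0425 (−1.06); requiring the 1.5-fold change in both numbered pairs gave 513 genes higher and 456 lower, 0 germline genes higher and Stag3 lower, and 1 and 0 of the other germline genes. Without a filter there were 26 calls, 3739 genes higher and 2357 lower, and 18 and 5 other germline genes. A pseudocount of 0.1 gave 17 calls. Its log2 differences were 1.00 in Taf7l, now above 0.80 in Mael, 0.77 in Tdrkh and 0.47 in Slc25a31. Quantile normalization gave 0.41 in Taf7l, 0.24 in Tdrkh and 0.12 in Slc25a31. Folds from mean log2(FPKM + 1) gave 589 genes higher and 494 lower, 1 germline gene higher (Mael), and 1 and 1 of the others. Leaving out 1 library at a time gave 19 to 398 calls, 632 to 1414 genes higher and 850 to 1179 lower, 1 to 6 germline genes higher and 1 to 2 lower, and 5 to 11 higher and 3 to 10 lower of the others, the lone library left in a group being assumed to vary like the other group. Of these 4 settings, the largest counts of calls and of genes in either direction came without shCbx6 replicate 1, where Cbx6 stood at −1.42 (adjusted p = 0.0297; range over alternatives 0.0297 to 0.833, and of the difference with a library left out −1.42 to −0.70). Dazl ran from −0.47 to 0.25, reversed without shCtl replicate 1. Between leaving out shCbx6 replicate 2 and shCbx6 replicate 1, Ddx4 ran from 0.019 to 0.60, Stk31 from 0.0033 to 0.82, Mael from 0.32 to 1.13 and Sycp3 from 0.70 to 0.33. Slc25a31 ran from 0.11 without shCtl replicate 2 to 0.58, and Taf7l and Tdrkh reached 0.94 and 0.71 without shCbx6 replicate 1; without shCbx6 replicate 2 these 3 fell under the filter. Stag3 stayed between −0.83 and −0.66. With a peak score of at least 100, CBX7 was called at 1 germline gene (Tdrkh), CBX6 replicate 2 at 0, RING1B at 9 (not Sycp3) and CBX6 replicate 1 at 6 (not Dazl or Mael), and 4 of the germline RING1B peaks lacked CBX6 replicate 1. The cause of these changes was not tested, apart from fewer genes or samples where the alternative removes them. Smaller shifts were 5 germline genes higher with median scaling (Stk31 added) and 3 with quantile normalization (Slc25a31 lost), 10 RING1B peaks without CBX6 replicate 2 if 0.5 of the RING1B peak must be overlapped, and 6 E-box and 4 E2F promoters in the 200 bases upstream.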

Other observations

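Of the 10 germline genes, 8 are part of a wider class of genes with RING1B and no CBX7. Of the 201 tested genes of that class, 12.9% were at least 1.5-fold higher in shCbx6 and 10.4% at least 1.5-fold lower. Of the 1020 tested genes with both RING1B and CBX7, 27.5% were higher and 14.6% lower, and of the 10108 without RING1B 5.4% and 5.5%. A gene can pass the filter through the group in which it is higher, so these shares are descriptions with no test. Of 5 primordial germ cell markers, Dppa3 and Tfap2c differed by more than any of the 10 germline genes did, both on the log2(FPKM + 1) scale and by the ratio of means. Dppa3, a maternal factor that marks early germ cells, stood at 2.36 and 2.19 FPKM in shCtl and 27.0 and 57.1 in shCbx6 (log2 difference 3.62; limma, adjusted p = 0.0732), and Tfap2c, a transcription factor of early germ cells, at 2.84 and 2.21 and then 7.41 and 9.04 (1.39; limma, adjusted p = 0.0895). Kit, the receptor of migrating germ cells, was lower, with a ratio of the means of 0.41 (log2 difference −1.20; limma, adjusted p = 0.0872).

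The bases beside the E-box words were looked at after the sequences had been seen. Of the 8 E-box words in the germline promoters, 5 had C before and A after the word on one strand, which spells CCACGTGA, beside 516 of the 2582 E-box words of all RefSeq promoters (20.0%).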
